A study of Mus musculus with 20 samples.

Results

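The S100 calcium-binding proteins of mouse bone marrow-derived macrophages (BMDM) are described here at the RNA level, through the 8 genes of the family that the gene table lists: S100a1, S100a4, S100a6, S100a8, S100a9, S100a10, S100a11 and S100a13. They were found by gene symbol, and they are 8 of 14456 listed genes. GENCODE M21 annotates 17 S100 genes in the mouse, 14 of them on chromosome 3. The 9 others (S100a2, S100a3, S100a5, S100a7a, S100a14, S100a16, S100b, S100g and S100z) are not among the listed genes, for which the median library held 11 reads or more.

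All 20 libraries are total RNA of BMDM, the macrophages that grow from marrow of male C57BL/6J mice, 8 to 12 weeks old, under the growth factor M-CSF. In the glucose experiment, 4 libraries come from cells held at 25 mM glucose, called high glucose, and 4 from cells held at 5.5 mM glucose with 19.5 mM mannitol to match the osmotic pressure, called normal glucose, in both cases for 24 h. In the exosome experiment, naive BMDM received PBS, exosomes from normal-glucose BMDM (BMDM-NG-exo) or exosomes from high-glucose BMDM (BMDM-HG-exo) at 2000000000 particles per ml for 24 h, with 4 libraries in each group, 1 from each of 4 dates in the labels. No group carries a transgene or a deletion, and the cultured cells stand in for macrophages outside the body. The labels do not say which libraries came from separate animals, so the p-values measure the spread between these libraries, part of which may be technical.

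S100 proteins are small proteins of the EF-hand type, in which a helix-loop-helix fold binds calcium. Most act as dimers, and calcium binding opens a surface that holds a target protein. Inside cells they tune the cytoskeleton, membrane traffic and enzymes, and several are also released and act outside the cell. S100A8 and S100A9 form calprotectin, an abundant protein of neutrophils and of freshly recruited monocytes that is known as an alarmin for the receptors TLR4 and RAGE.

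The 8 genes lie on chromosome 3 of GRCm38 in 2 clusters. The larger one holds S100a1 (90511034 to 90514392, minus strand), S100a13 (90514435 to 90524581), S100a4 (90603771 to 90606045), S100a6 (90612882 to 90624181), S100a8 (90668978 to 90670035) and S100a9 (90692632 to 90695721, minus strand), and the smaller one holds S100a11 (93520488 to 93526287) and S100a10 (93555080 to 93564643). The genes without a named strand are on the plus strand. The starts of S100a1 and S100a13 are 43 bases apart and point away from each other. The exons of S100a4 overlap those of Gm42674, which is on the same strand and is not listed, so S100a4 reads in the shared exons cannot be assigned by strand. No other member shares exons with another gene.

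RefSeq promoter windows, from 250 bases before to 50 after the annotated start, were matched for 7 of the 8 members. S100a10 had no matched window, so it was not searched for the motifs below. The stretch from 100 bases before to 20 after the start is printed for the members on which the results below turn, S100a4 and S100a6, which rose in high glucose, and S100a8 and S100a9, which had the lowest levels. Each is written 5′ to 3′ on the strand of the gene, and the capitals mark the letters TATAAA, the core of a TATA box.
S100a4, chr3:90603670-90603789, plus strand, GRCm38.p6: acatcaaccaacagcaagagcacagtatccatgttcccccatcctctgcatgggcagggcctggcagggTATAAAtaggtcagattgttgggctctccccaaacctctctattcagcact
S100a6, chr3:90612794-90612913, plus strand, GRCm38.p6: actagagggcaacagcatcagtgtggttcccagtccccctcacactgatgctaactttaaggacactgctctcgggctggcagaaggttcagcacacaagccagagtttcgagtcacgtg
S100a8, chr3:90668971-90669090, plus strand, GRCm38.p6: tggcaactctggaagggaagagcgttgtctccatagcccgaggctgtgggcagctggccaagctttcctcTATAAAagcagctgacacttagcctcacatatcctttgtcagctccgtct
S100a9, chr3:90695702-90695821, minus strand, GRCm38.p6: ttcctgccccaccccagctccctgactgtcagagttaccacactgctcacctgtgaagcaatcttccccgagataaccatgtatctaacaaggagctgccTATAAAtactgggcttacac

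The whole windows were searched on both strands for 5 short motifs. TATAAA was found in S100a4, S100a8 and S100a9 and in 13.6% of all 32851 RefSeq promoter windows. In S100a4 and S100a8 it lies just before the annotated start, and in S100a9 it lies on it. TTGCNNAA, the C/EBP motif of myeloid genes, was found in S100a9 and in 10.8% of all windows. GAGGAA, the PU.1 motif, was found in S100a4, S100a8 and S100a11 (28.3% of all windows), and TGANTCA, the AP-1 motif, in S100a11 (7.81% of all windows). A 10-letter NF-kappaB motif was found in S100a1, S100a4, S100a6, S100a11 and S100a13 (50.8% of all windows). Such matches describe letters and are no binding sites.

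The members fell into a set of 6 well expressed genes and a set of 2 low ones. Levels between genes are given per length, as normalized counts (reads divided by the size factor of the library) per kb of annotated exons, averaged over 20 libraries. S100a6, a cytoskeletal member with the name calcyclin, had the highest level at 3287 per kb, which placed it 339th of the listed genes. S100a10, the light chain of the annexin A2 complex at the plasma membrane, followed at 3085 per kb. S100a1, best known from heart muscle, stood at 2485 per kb and S100a11, a partner of annexin A1, at 2190 per kb. S100a13, which takes part in the release of proteins without a signal peptide, was at 1718 per kb and S100a4, a regulator of non-muscle myosin and cell motility, at 1578 per kb.
S100a9 was far below these at 113 per kb, and S100a8 had the lowest level at 37.6 per kb, above only 24.2% of the listed genes. S100a6 was above S100a10 in 15 of 20 libraries and S100a13 above S100a4 in 15 of 20, so these neighbours changed places within the spread between libraries. In the high glucose and PBS groups the mean of S100a4 was above that of S100a13. S100a10 was above S100a1, S100a4 above S100a9, and S100a9 above S100a8 in all 20 libraries, while S100a1 was above S100a11 in 18 and S100a11 above S100a13 in 19. The lengths count every annotated exon, so a gene read mostly from a short transcript has a higher level than given here.

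**Figure D1:**
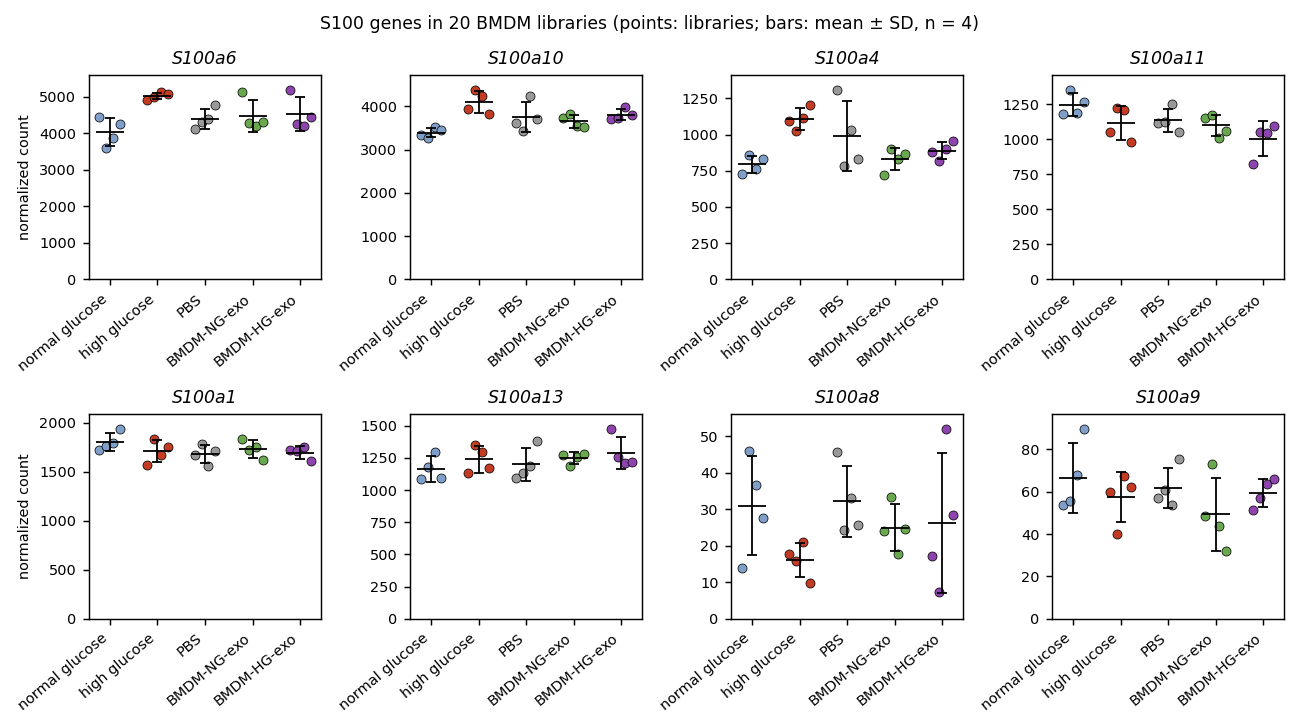
Normalized counts (y axis, from 0) of the 8 S100 genes in the 5 groups (x axis); each point is a library, and the horizontal bar with whiskers is the mean ± SD of 4 libraries. S100a4, S100a6 and S100a10 have all 4 high glucose libraries above all 4 normal glucose libraries, and S100a8 and S100a9 stay under 100 in each library.

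High glucose was compared with normal glucose to ask how the macrophages respond to it directly. S100a4, S100a6 and S100a10 rose, with 1.40-fold, 1.25-fold and 1.21-fold higher levels, and the groups did not overlap for any of the 3. The other 5 members did not pass the test (limma, adjusted p under 0.05). All changes are on the scale of log2(normalized count + 1). Of the 14425 genes tested, 13.3% were called, 7.74% were called higher, and 16.3% had groups that did not overlap. The median log2 fold change was 0.00437 over the 8 members, 4 of them above 0, and -0.00306 over all genes tested. Among the 5 groups, normal glucose had the lowest mean and high glucose the highest for S100a4, S100a6 and S100a10. PBS, from the separate exosome experiment, lay between them, at 989, 4400 and 3745 normalized counts. High and normal glucose differ in mannitol as well, and the parts of glucose and mannitol cannot be told apart.

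S100a4 showed the largest rise. Its normalized counts were 729, 856, 762 and 828 in normal glucose (replicates 1, 3, 5 and 6). They were 1094, 1021, 1111 and 1202 in high glucose (replicates 1, 2, 4 and 6). The lowest high glucose library was thus above the highest normal glucose library. The means were 794 ± 58.3 and 1107 ± 74.6 (SD, n = 4 each), and the log2 fold change was 0.48 (SE 0.0741, adjusted p = 1.03e-05).

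S100a6 had the largest counts of the family. They were 4440, 3605, 3861 and 4245 in normal glucose. The high glucose libraries had 4922, 4986, 5122 and 5080, with the replicates in the same order as before. The high glucose libraries lay close together, whereas those of normal glucose were spread more widely below them. The means were 4038 ± 376 and 5028 ± 90.5 (SD, n = 4 each), and the log2 fold change was 0.32 (SE 0.0493, adjusted p = 9.76e-06). With the library number of the titles as a block, it was 0.20 (adjusted p = 0.0370).

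S100a10 counts were 3344, 3259, 3511 and 3463 in normal glucose. In high glucose they were 3941, 4384, 4236 and 3834, again with no overlap. The means were 3394 ± 114 and 4099 ± 255 (SD, n = 4 each), and the log2 fold change was 0.27 (SE 0.0472, adjusted p = 6.98e-05). With the same block, which leaves 2 numbered pairs to compare, S100a10 did not pass (log2 fold change 0.19, adjusted p = 0.0733).

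S100a11 had a lower mean in high glucose, 1115 ± 119 against 1247 ± 81.2 (SD, n = 4 each). Its libraries ran from 982 to 1223 in high glucose and from 1183 to 1353 in normal glucose, so that the groups overlapped. The log2 fold change of -0.16 (95% confidence interval -0.31 to -0.02) had an unadjusted p of 0.0286 and did not pass after adjustment over all genes (limma, adjusted p = 0.137). S100a1 stood at 1709 ± 111 in high and 1803 ± 92.6 in normal glucose (log2 fold change -0.08, interval -0.20 to 0.04). S100a13 stood at 1238 ± 105 and 1165 ± 99.5 (log2 fold change 0.09, interval -0.06 to 0.23). These intervals leave room for changes of up to 0.872-fold for S100a1 and 1.17-fold for S100a13.

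S100a8 and S100a9, the calprotectin genes, were measured with few reads. The 4 normal glucose libraries had S100a8 counts of 13.9, 45.9, 36.7 and 27.6. Those of high glucose had 17.8, 15.9, 21.1 and 9.79. In normal glucose 3 libraries were above every high glucose library, and the remaining one was below 3 of them. The log2 fold change of -0.83 had an interval from -1.72 to 0.06 and did not pass (limma, adjusted p = 0.234). For S100a9 the values were 53.8, 55.5, 67.7 and 89.6 without and 59.8, 40.3, 67.2 and 62.0 with high glucose. The groups overlapped (log2 fold change -0.21, interval -0.75 to 0.33, adjusted p = 0.681). A change of S100a8 or S100a9 smaller than these intervals was not detectable at this depth and with this spread between libraries.

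**Figure D2:**
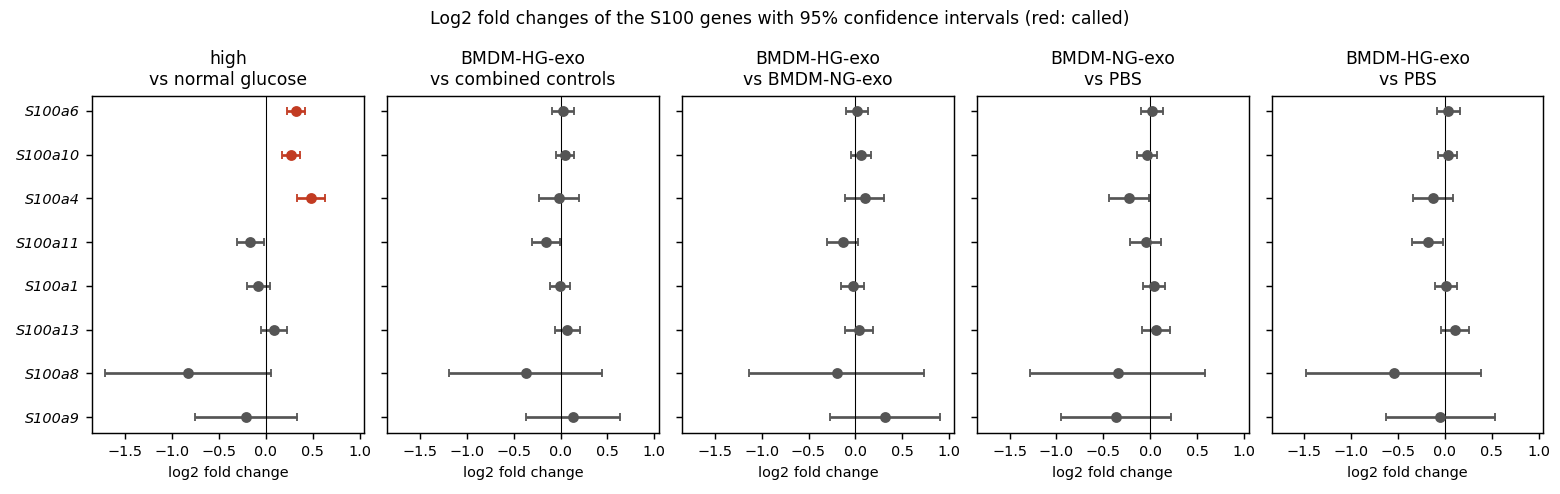
Log2 fold changes (x axis) of the 8 S100 genes (rows) in the 5 comparisons (panels), with 95% confidence intervals from limma; red points were called. Only S100a4, S100a6 and S100a10 in high against normal glucose are red, and S100a8 and S100a9 have the widest intervals in each panel.

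The 8 members together summed to 12116 to 12950 normalized counts in the normal glucose libraries and to 13787 to 14854 in the high glucose libraries. Most of the sum comes from S100a6 and S100a10, so it moves with them and adds no separate measurement. In bulk RNA of this kind, fewer cells of a type and less RNA per cell cannot be told apart.

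Markers of the cell type moved in the same comparison. All 7 macrophage markers were listed, at a summed level of 624620 to 698729 in normal glucose and 801862 to 871992 in high glucose, mostly from Lyz2 (lysozyme). Of these markers 3 were called higher in high glucose (Csf1r, Lyz2 and Adgre1) and 2 lower (Mertk and Cd68). This is 71.4% of the list, against 13.3% of all genes tested. Over the 20 libraries the macrophage sum had a Pearson r of 0.67 with S100a4, 0.71 with S100a6 and 0.71 with S100a10, values that share the group difference and the library scaling. Of 6 monocyte markers 4 were listed, at 5445 to 6262 in normal and 7060 to 7899 in high glucose, while Ly6c2 and Plac8 were not listed. Vcan, F13a1 and Ccr2 were called higher, which is 75% of the monocyte markers tested. Both lists were chosen with earlier results known, so these shares are no test of them. In the exosome experiment the macrophage sum was 789319 to 835207 in PBS, 714201 to 771368 in BMDM-NG-exo and 732269 to 757723 in BMDM-HG-exo. Against PBS, Csf1r, Adgre1 and Fcgr1 were called lower in both exosome groups, 42.9% of the list each time. Of the tested monocyte markers, 25% and 50% were called, all lower. The shares of all genes tested were 3.0% and 4.84%, and S100a4, S100a6 and S100a10 were not called there. The part of these markers in the rise of S100a4, S100a6 and S100a10 was not tested.

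Neutrophils are the richest source of S100A8 and S100A9, so their markers were set beside these genes. Of 18 markers of neutrophils and their precursors 9 were listed. The defining genes Ly6g, Camp, Elane, Prtn3, Ctsg and Cxcr2 were not, whereas Ngp, Ltf and Mpo were. Their group means ran from 72.0 to 101 for Ngp, 55.4 to 81.9 for Ltf and 9.75 to 22.8 for Mpo. The 9 listed markers summed to 5994 to 6466 in normal glucose and 5354 to 6128 in high glucose. In the exosome experiment the sum was 6847 to 7203 in PBS, 6682 to 6878 in BMDM-NG-exo and 6062 to 6615 in BMDM-HG-exo. Most of this sum was Csf3r, a receptor gene. In high against normal glucose 1 of the 9 was called higher, the collagenase gene Mmp8 (723 ± 57.7 against 536 ± 59.6, log2 fold change 0.44), and 1 lower, Csf3r (4824 ± 345 against 5380 ± 351, log2 fold change -0.16; SD, n = 4 each). Together these are 22.2% of the listed markers, against 13.3% of all genes tested. Cebpe, Lcn2 and Chil3, next by p, did not pass, with log2 fold changes of -1.34, 1.17 and -0.42. The sum had a Pearson r of 0.45 with S100a8 and of -0.17 with S100a9 over the 20 libraries, and its part in either gene was not tested. No marker of dendritic cells, T cells or erythroid cells was listed. Of the B cell markers 1 of 5 was listed (17.4 to 68.0 over the libraries), and of the fibroblast markers 3 of 5 (107 to 349).

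**Figure D3:**
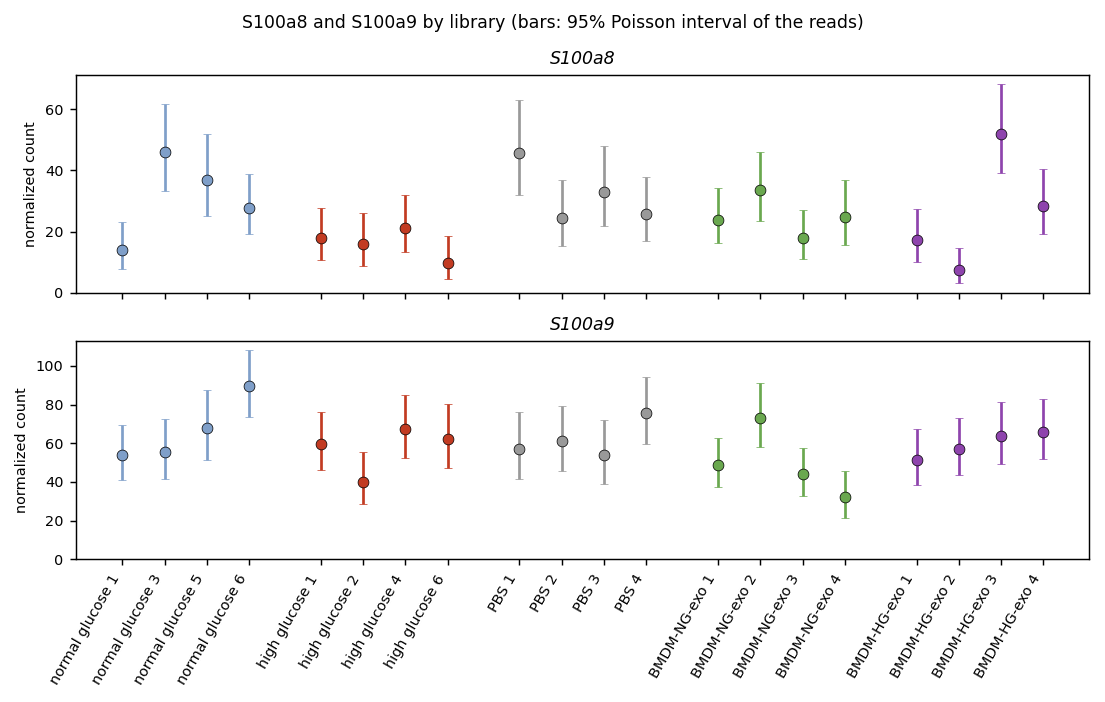
Normalized counts (y axis, from 0) of S100a8 and S100a9 in each of the 20 libraries (x axis, grouped by colour); the whiskers are 95% Poisson intervals of the reads and cover counting error only. S100a8 runs from 7.35 to 52.0, and both of these libraries are in the BMDM-HG-exo group.

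The levels of the calprotectin genes and their ratio varied between libraries. S100a8 had between 8 and 53 reads in a library and S100a9 between 30 and 107. Counting error alone gives S100a8 a coefficient of variation of 18.0% to 24.8% in the 5 groups, and the observed values were 25.9% to 73.4%. For S100a9 counting error gives 12.0% to 13.5%, and 11.2% to 34.9% was observed. The mean log2 ratio of S100a8 to S100a9 counts was -1.20 ± 0.768 in normal glucose, -1.86 ± 0.566 in high glucose, -0.97 ± 0.562 in PBS, -0.96 ± 0.403 in BMDM-NG-exo and -1.51 ± 1.10 in BMDM-HG-exo (SD, n = 4 each). The ratio ran from -1.95 to -0.27 in normal and from -2.66 to -1.34 in high glucose, so that these groups overlapped, and it reached both -2.95 and -0.29 in BMDM-HG-exo. The levels of the 2 genes had a Pearson r of 0.22 over the 20 libraries and of 0.19 once group means were removed.

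The exosome experiment asked how naive macrophages respond to exosomes of high-glucose macrophages. None of the 8 members passed in any of its 4 comparisons (limma, adjusted p under 0.05, with the log2 fold change 0.15 or more in size). This held for edgeR and DESeq2 as well. Of all genes tested, 0.201% were called in BMDM-HG-exo against the combined controls (PBS and BMDM-NG-exo), 0.0139% in BMDM-HG-exo against BMDM-NG-exo, 3.0% in BMDM-NG-exo against PBS and 4.84% in BMDM-HG-exo against PBS. A count of 0 among 8 members is close to each of these shares. The 4 comparisons share libraries and are not separate evidence. At an unadjusted p under 0.05, they held 1, 0, 1 and 1 of the 8 members, in the order given, against 10.5%, 6.54%, 13.5% and 16.9% of all genes tested.

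S100a11 was the member with the smallest unadjusted p in the comparisons of BMDM-HG-exo with the combined controls and with PBS. Its counts were 1116, 1123, 1248 and 1048 in PBS, 1149, 1174, 1010 and 1057 in BMDM-NG-exo, and 822, 1050, 1045 and 1096 in BMDM-HG-exo. Replicate 1 of BMDM-HG-exo was the lowest of the 12 libraries, and the other 3 of that group were within the range of the controls. The log2 fold change was -0.16 against the combined controls (interval -0.31 to -0.01), which did not pass (limma, adjusted p = 0.435). Without that library it was -0.07. Against PBS it was -0.18 (adjusted p = 0.231 by limma), and -0.09 without that library.

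S100a4 had its highest count of all 20 libraries in a PBS library. The counts were 1309, 782, 1034 and 831 in PBS, 723, 902, 832 and 866 in BMDM-NG-exo, and 880, 815, 901 and 955 in BMDM-HG-exo. In the PBS group replicate 1 stood above all others, 1 further library was above both exosome groups, and the remaining ones lay within the range of the exosome libraries. The log2 fold change of BMDM-NG-exo against PBS was -0.23 (interval -0.44 to -0.01) and did not pass (limma, adjusted p = 0.323), and it was -0.08 without that PBS library.

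S100a6 and S100a10 had means that lay close together in the exosome groups. S100a6 was at 4400 ± 273 in PBS, 4478 ± 431 in BMDM-NG-exo and 4526 ± 457 in BMDM-HG-exo (SD, n = 4 each). In both exosome groups replicate 1 was the highest library, at 5121 and 5196, and the PBS library of the same date, 2020-01-08, was the lowest of the 12 at 4126. S100a10 was at 3745 ± 345, 3652 ± 143 and 3807 ± 133 in the same order of groups. The log2 fold changes of BMDM-HG-exo against PBS were 0.04 for S100a6 (interval -0.08 to 0.16) and 0.03 for S100a10 (interval -0.08 to 0.13). The upper limits correspond to 1.12-fold and 1.10-fold.

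S100a1 and S100a13, the pair with neighbouring starts, also stayed within their spread. S100a1 means were 1683 ± 93.1 in PBS, 1732 ± 91.4 in BMDM-NG-exo and 1697 ± 62.7 in BMDM-HG-exo. Those of S100a13 were 1200 ± 128, 1250 ± 44.4 and 1290 ± 125 (SD, n = 4 each). The log2 fold changes of BMDM-HG-exo against PBS were 0.01 for S100a1 (interval -0.11 to 0.13) and 0.10 for S100a13 (interval -0.05 to 0.25). Over the 20 libraries the 2 genes had a Pearson r of 0.0084.

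S100a8 counts in the exosome experiment were 45.6, 24.4, 33.0 and 25.8 in PBS, 23.9, 33.4, 17.7 and 24.6 in BMDM-NG-exo, and 17.1, 7.35, 52.0 and 28.4 in BMDM-HG-exo. The BMDM-HG-exo group held both the lowest and the highest of the 12 libraries. S100a9 was at 61.8 ± 9.57 in PBS, 49.4 ± 17.3 in BMDM-NG-exo and 59.5 ± 6.68 in BMDM-HG-exo. For BMDM-HG-exo against BMDM-NG-exo the log2 fold change was -0.20 for S100a8 (interval -1.13 to 0.73) and 0.32 for S100a9 (interval -0.27 to 0.90). Without 1 library in turn, S100a8 ran from -0.62 (without BMDM-HG-exo replicate 3) to 0.27 (without BMDM-HG-exo replicate 2) and S100a9 from 0.13 (without BMDM-NG-exo replicate 4) to 0.52 (without BMDM-NG-exo replicate 2), and neither passed in any of these fits. In BMDM-HG-exo the coefficient of variation of S100a8 was 73.4%, against 19.2% from counting error alone. At this depth and with this spread between libraries, changes smaller than these intervals were not detectable for either calprotectin gene.

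A list of 22 genes was taken around the S100 proteins, of which 21 were tested. It holds binding partners and receptors, and also linked genes that are neither, such as Slc2a1, Plau, Plaur and Ptgs2. In high against normal glucose 8 of them were called higher and 1 lower, with a median log2 fold change of 0.07 over the list. This is 42.9% of the list, against 13.3% of all genes tested. The list was chosen with earlier results of these data known, so the difference is no test of it. Among the 5 with the smallest p, Slc2a1, the glucose transporter GLUT1, went from 915 ± 102 to 1327 ± 96.2 (SD, n = 4 each), a log2 fold change of 0.54 (SE 0.0751). Cd14, the coreceptor of TLR4, rose by 0.39 (SE 0.0424), and Tlr4 itself by 0.28 (SE 0.0420). Cybb, a subunit of the phagocyte NADPH oxidase, to which S100A8 and S100A9 bind in neutrophils, rose by 0.31 (SE 0.0314). Plau, the plasminogen activator urokinase, fell by 0.58 (SE 0.0724), from 1159 ± 67.4 to 774 ± 49.7.
The binding partners of S100A10, chosen for mention after their values were seen, were both called higher: Anxa2 (annexin A2) at a log2 fold change of 0.20 (SE 0.0357) and Ahnak, a large scaffold protein, at 0.17 (SE 0.0328). Other binding partners on the list are named on the same ground. Cacybp was called higher too, whereas Anxa1, Anxa5, Anxa6, Anxa11, Myh9 and Sugt1 did not pass. Ager, which encodes RAGE and was also named after its values were seen, was at 27.9 ± 14.1 in high and 40.4 ± 8.20 in normal glucose. It did not pass (limma, adjusted p = 0.285).

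Few genes of that list were called in the exosome experiment. Against PBS it was 4.76% of the list for BMDM-NG-exo and 9.52% for BMDM-HG-exo, beside 3.0% and 4.84% of all genes tested. Cd14 was lower in both exosome groups than in PBS (log2 fold change -0.31 for BMDM-NG-exo and -0.32 for BMDM-HG-exo). Myd88, the adaptor of TLR4, was lower in BMDM-HG-exo than in PBS (log2 fold change -0.20). Cybb was lower than in PBS in BMDM-NG-exo (-0.125, limma, adjusted p = 0.0153) and in BMDM-HG-exo (-0.147, adjusted p = 0.00187). Cd36 was higher in BMDM-HG-exo than in PBS (0.129, limma, adjusted p = 0.0465). Both genes stayed under the 0.15 limit and were not called. In BMDM-HG-exo against the combined controls limma, edgeR and DESeq2 each called 0 genes of the list, with 5 at an unadjusted p under 0.05 in limma, and in BMDM-HG-exo against BMDM-NG-exo each called 0, with 0 at an unadjusted p under 0.05.

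**Figure D4:**
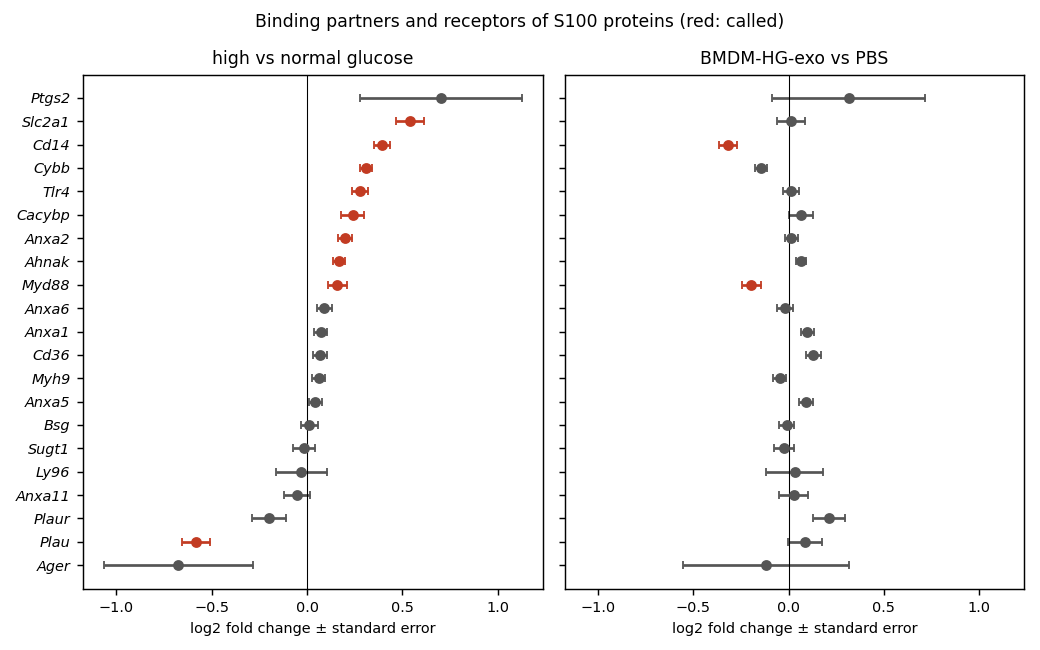
Log2 fold changes (x axis, point ± standard error) of the 21 tested genes of the list around S100 proteins (rows). The panels are high against normal glucose (left) and BMDM-HG-exo against PBS (right), and red points were called. Beside binding partners and receptors the list holds linked genes such as Slc2a1 and Plau. The left panel has 9 red points, 8 of them above 0 and Plau below, and the right panel has 2, Cd14 and Myd88, both below 0.

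EF-hand genes outside the S100 family were taken as a list of 29, all of them tested. In high against normal glucose 5 were called higher and 1 lower, with a median log2 fold change of 0.04. This is 20.7% of the list, against 13.3% of all genes tested. This list, too, was chosen with earlier results known, and the difference is no test of it. Nucb2 (nucleobindin) rose by 0.28 (SE 0.0536), Cib1, an integrin-binding protein, by 0.44 (SE 0.0964), Letm1 of the inner mitochondrial membrane by 0.22 (SE 0.0516) and Capn2 (calpain) by 0.11 (SE 0.0356). Efhd2, an actin-associated protein, fell by 0.12 (SE 0.0349). Efhd2 was also lower in BMDM-HG-exo than in PBS (log2 fold change -0.143, limma, adjusted p = 0.00103). It was not called there, since it stayed under the fold-change limit, which applied to the exosome experiment only. In the other exosome comparisons its adjusted p did not pass. Aif1 (IBA1), a macrophage protein, was the one EF-hand gene called by limma in the exosome experiment. Aif1 was at 1291 ± 137 in PBS, 1054 ± 75.3 in BMDM-NG-exo and 815 ± 102 in BMDM-HG-exo (SD, n = 4 each). Its log2 fold change was -0.52 for BMDM-HG-exo against the combined controls (SE 0.0898, limma, adjusted p = 0.0109). BMDM-NG-exo was also called lower than PBS (-0.29, limma, adjusted p = 0.0487), and BMDM-HG-exo against PBS was at -0.67. BMDM-HG-exo against BMDM-NG-exo did not pass (-0.38, limma, adjusted p = 0.118). S100pbp, whose product binds an S100 protein without being one, stood at 812 to 1085 over the 20 libraries and was called in no comparison.

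The patterns of the 3 genes that rose in high glucose were compared library by library. Over the 20 libraries the Pearson r was 0.58 for S100a6 and S100a10, 0.55 for S100a4 and S100a10, and 0.27 for S100a4 and S100a6. Once group means were removed these values were 0.07, 0.06 and -0.41. The 20 libraries share their scaling and the 5 groups, and the values are a description.

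The genes most alike to each of these members were sought among 11718 genes, those whose mean normalized count reached 50. For S100a4 they were Gm49759 (r 0.80), Tlr4 (r 0.80) and Zscan29 (r 0.79). Cap1 (r 0.87), Cyb5a (r 0.83) and Slc6a12 (r 0.82) were nearest to S100a6, and Ran (r 0.84), Gm20658 (r 0.80) and Nup153 (r 0.78) to S100a10. S100a8 had lower values, with Dennd4a the nearest at 0.74. Once group means were removed, r was 0.62, 0.66 and 0.60 for the genes named with S100a4, in the order given. It was 0.75, 0.59 and 0.77 for those of S100a6, 0.55, 0.48 and 0.34 for those of S100a10, and 0.66 for Dennd4a. Each gene was picked for its high r over 20 libraries, and the values are a description.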

How the data were processed

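Total RNA of BMDM was sequenced from ribosome-depleted stranded libraries in 20 samples. The authors mapped the reads with STAR to GRCm38, assigned them to genes with featureCounts, and scaled each library by a DESeq2 median-ratio size factor. The deposited signal is this normalized count, and 0 columns lacked a sample. Whole reads were recovered from the smallest step of each column, with 100% of values whole within 0.02, and gave 34016445 to 56310712 reads per library. Genes were named and placed with GENCODE M21, and 14421 of 14456 identifiers matched.

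In R 4.3.3, limma 3.58.1 tested log2(normalized count + 1), two-sided and with a variance trend, and p-values were adjusted by Benjamini-Hochberg over all genes whose mean reached 10. The 8 glucose and 12 exosome libraries were fitted separately. Calls needed an adjusted p under 0.05, and in the exosome experiment also a log2 fold change of 0.15 or more in size. All 8 members were named, and of other lists genes among the 5 with the smallest p, beside markers that make up most of a sum or define a cell type and genes said to be chosen after their values were seen. Alternatives used edgeR 4.0.16 and DESeq2 1.42.0 on the recovered reads, other scalings, filters and pseudocounts, and left out each library. Members and lists were chosen with earlier results of these data known.

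Same-date exosome libraries, paired by the labels, deviated together weakly (mean correlation 0.0113 over 12 pairs, -0.00375 over 36 others), and the date as a block changed no call of a member. Poisson intervals cover counting error only, since reads without molecular identifiers are not independent molecules.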

Additional observations from a re-analysis of the deposited data

Results flagged for a closer look

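S100a6 in BMDM-NG-exo had 1 library far from the others of its group. Replicate 1 stood at 5121 normalized counts, while the other 3 stood at 4202, 4277 and 4311, and the gap took up 0.881 of the whole range, above Dixon's 95% critical value for 4 samples. It was 1 of 40 groups of member values looked at, and chance alone gives such a value in about 1 in 20 groups. The BMDM-HG-exo library of the same date was also the highest of its group, at 5196, and the PBS library of that date was at 4126. The cause was not tested.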

How the results depend on the processing

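The count of members called in high against normal glucose was 3 in 8 of the 9 alternative settings (pseudocount, filter, TMM and quantile scaling, no variance trend, edgeR, DESeq2, and all libraries in 1 fit). With a replicate block on the library number it was 2, since S100a10 did not pass (log2 fold change 0.19, adjusted p = 0.0733). Of the glucose numbers only 1 and 6 occur in both groups, and same-numbered libraries had a mean deviation correlation of 0.00907 over 2 pairs against -0.0013 over 14 others, and the labels do not say whether equal numbers mark a shared animal or day. Without each of the 8 libraries in turn the count was 3 throughout, and the log2 fold changes ran from 0.44 to 0.52 for S100a4, from 0.27 to 0.37 for S100a6 and from 0.24 to 0.30 for S100a10. Without the variance trend 4.53% of all genes were called and with the replicate block 5.46%, against 13.3% in the reported fit. Adjusted p-values without the trend were 0.0180 for S100a4, 0.0497 for S100a6 and 0.0429 for S100a10, and with the block the log2 fold change was 0.56 for S100a4 and 0.20 for S100a6 (adjusted p = 0.0370).

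In the 4 exosome comparisons no alternative called a member, among them the replicate block on the date, which changed no call of a member. The number of all genes called in BMDM-HG-exo against the combined controls varied from 1 to 322 with the setting (29 as reported, 23 with the block), in BMDM-HG-exo against BMDM-NG-exo from 0 to 25 (2, and 22 with the block), in BMDM-NG-exo against PBS from 95 to 512 (432) and in BMDM-HG-exo against PBS from 295 to 833 (698). Of 840 recomputed member values, 1 lost its call and none gained one, while 29 uncalled values took the other sign. Depth, with at most 53 and 107 reads in a library, and the spread between libraries limit S100a8 and S100a9.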
